A study of Mus musculus with 6 samples.

Results

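The T helper 1 axis was followed through 6 genes, Ifng, Tbx21, Eomes, Il12rb1, Il12rb2 and Cxcr3. They were listed by name because they encode the signature cytokine of T helper 1 cells (Ifng), its regulators, and receptors carried by T helper 1 cells. The receptors are Il12rb1, Il12rb2 and Cxcr3, and none of them is the receptor of that cytokine. Each gene had 1 probe set, so 6 of the 23410 named probe sets were described, or 6 of 19938 genes with a probe set of their own. Expression was measured on 6 Affymetrix whole-transcript arrays, 2 for each of 3 sorted populations of CD4+ CD44+ T cells, which are helper cells with the surface mark of antigen experience. The populations were Cxcr5+Bcl6+, Cxcr5+Bcl6- and Cxcr5-Bcl6- cells, sorted on the follicle-homing receptor Cxcr5 and on a red fluorescent protein (RFP) that reports the transcriptional repressor Bcl6. All came from draining lymph nodes of male Bcl6-RFP reporter mice, aged 8 to 10 weeks, that had been immunised with KLH/CFA, the antigen keyhole limpet haemocyanin emulsified with complete Freund's adjuvant. The reporter stands in for Bcl6 protein, and the 3 groups hold no cells of unimmunised mice. Arrays of 1 group are biological replicates per the labels. Pooling of mice and restimulation of cells before lysis in Trizol are not stated in the labels. The p-values therefore rest only on the spread between these arrays, which the test pooled in part across probe sets.

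T helper 1 cells arise when interleukin 12 from dendritic cells and macrophages binds a receptor made of the Il12rb1 and Il12rb2 chains and activates the transcription factor Stat4. Stat4 and the T-box factor T-bet, the product of Tbx21, drive transcription of Ifng, and T-bet also raises Il12rb2 and Cxcr3. Bcl6, the regulator of follicular helper T cells, is known as a repressor of T helper 1 genes, and its DNA motif resembles that of STAT proteins.

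The promoters of Ifng, Tbx21 and Il12rb2 are shown because these 3 members had the largest falls in Cxcr5+Bcl6+ against Cxcr5-Bcl6- cells, and that of Cxcr3 because it was the only member that was not lower there. The sequences are from RefSeq on build GRCm38.p6 and run 5′ to 3′ on the strand of the gene, from 250 bases before the start site to 50 bases after it. Il12rb1 is named only. Capitals mark matches to the motifs described after the sequences.
Ifng promoter: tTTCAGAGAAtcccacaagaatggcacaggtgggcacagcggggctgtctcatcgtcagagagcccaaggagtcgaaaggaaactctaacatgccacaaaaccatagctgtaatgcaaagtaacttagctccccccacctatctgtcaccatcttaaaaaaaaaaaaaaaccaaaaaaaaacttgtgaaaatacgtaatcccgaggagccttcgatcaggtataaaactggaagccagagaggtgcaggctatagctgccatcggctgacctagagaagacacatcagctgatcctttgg
Tbx21 promoter: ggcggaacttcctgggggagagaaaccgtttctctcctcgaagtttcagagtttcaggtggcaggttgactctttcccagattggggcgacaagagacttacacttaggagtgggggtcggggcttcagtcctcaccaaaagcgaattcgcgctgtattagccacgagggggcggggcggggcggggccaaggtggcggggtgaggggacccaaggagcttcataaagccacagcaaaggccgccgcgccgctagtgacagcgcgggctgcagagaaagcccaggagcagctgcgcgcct
Il12rb2 promoter: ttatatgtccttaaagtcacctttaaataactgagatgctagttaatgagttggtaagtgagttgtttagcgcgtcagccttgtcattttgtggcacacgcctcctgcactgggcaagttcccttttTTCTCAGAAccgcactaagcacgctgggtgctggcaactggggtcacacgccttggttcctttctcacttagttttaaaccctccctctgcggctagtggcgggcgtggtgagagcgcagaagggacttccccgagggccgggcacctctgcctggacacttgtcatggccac
Cxcr3 promoter: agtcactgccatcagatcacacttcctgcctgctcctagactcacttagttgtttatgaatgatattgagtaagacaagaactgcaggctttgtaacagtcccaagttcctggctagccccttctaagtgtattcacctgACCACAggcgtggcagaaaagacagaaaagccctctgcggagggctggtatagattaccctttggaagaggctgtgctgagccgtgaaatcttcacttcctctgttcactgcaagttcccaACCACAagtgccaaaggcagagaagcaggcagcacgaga
The windows were chr10:118440796-118441095 on the plus strand for Ifng, chr11:97115282-97115581 on the minus strand for Tbx21, chr6:67376139-67376438 on the minus strand for Il12rb2 and chrX:101734098-101734397 on the minus strand for Cxcr3. The letters searched on both strands were TTCNNNGAA, the core shared by STAT and Bcl6 sites, AGGTGT, a T-box core, TGANTCA, an AP-1 site, and TGTGGT, a Runx core. The STAT and Bcl6 core occurred 1 time in the Ifng window, starting at -249 from the start site, and 1 time in the Il12rb2 window, starting at -123. It is present in 8.3% of 32851 mouse promoter windows of the same length. The Cxcr3 window held the Runx core 2 times on the opposite strand, starting at -110 and 12, and 16.8% of windows hold it. The T-box core, present in 13.7% of windows, and the AP-1 site, present in 7.81%, had no match in the windows printed. The Tbx21 window held none of the 4 motifs, nor did that of Eomes, which is not printed. No matches overlapped, and a match is a run of letters, not a measured binding site.

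The sort genes followed the order of the labels, though Bcl6 RNA was not absent from the Bcl6- populations. Cxcr5 had log2 levels of 11.01 and 10.98 in Cxcr5+Bcl6+ cells, 9.98 and 9.91 in Cxcr5+Bcl6- cells and 7.61 and 7.34 in Cxcr5-Bcl6- cells. The Cxcr5+ populations thus differed in Cxcr5 as well (1.05, adjusted p = 2.15e-05). Bcl6 had 11.45 and 11.55 in Cxcr5+Bcl6+ cells. It had 10.55 and 10.56 in Cxcr5+Bcl6- cells and 10.31 in both arrays of Cxcr5-Bcl6- cells. The difference between the Bcl6- populations missed the threshold (0.25, adjusted p = 0.103). In both, Bcl6 stood well above the 95th percentile of the background genes described below (7.31 and 7.39). The 4 measured CD4 T cell markers, Cd3e, Cd3g, Cd4 and Cd44, were bright on all arrays, with mean log2 levels of 12.51 and 12.55 in Cxcr5+Bcl6+, 12.41 and 12.38 in Cxcr5+Bcl6- and 12.27 and 12.24 in Cxcr5-Bcl6- cells. Of these, Cd4 (0.79, adjusted p = 2.76e-05) and Cd3g (0.41, 0.00957) were higher and Cd44 (-0.33, 0.0127) lower in Cxcr5+Bcl6+ cells than in Cxcr5-Bcl6- cells. Arrays of a group correlated at r = 0.9966 to 0.9985 across probe sets, against 0.9706 to 0.9924 between groups, and probe sets are not independent replicates. In bulk RNA, fewer cells that express a gene and less of its RNA per cell cannot be told apart.

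Cxcr5+Bcl6+ cells had the lowest levels of 5 of the 6 genes. Against Cxcr5-Bcl6- cells, Ifng, Tbx21, Il12rb2, Il12rb1 and Eomes were lower (5 of 6 called lower and 0 higher, where 17.7% of all probe sets were called lower, 17.6% higher and 35.3% in either direction). Against Cxcr5+Bcl6- cells all 6 genes were lower (13.0% of all probe sets were called lower, 13.4% higher and 26.4% in either direction). The Cxcr5+Bcl6- cells did not sit evenly between the other populations. Against Cxcr5-Bcl6- cells they had more Ifng and Cxcr3, less Eomes, Tbx21 and Il12rb2, and an Il12rb1 level that did not differ past the threshold (2 called higher and 3 lower, where 5.22% of all probe sets were called higher, 5.93% lower and 11.1% in either direction). The median log2 difference of the 6 genes was -2.47 for Cxcr5+Bcl6+ against Cxcr5-Bcl6- cells, beside 0.04 over all 19938 genes, -2.31 against Cxcr5+Bcl6- cells, beside 0.06, and -0.13 for Cxcr5+Bcl6- against Cxcr5-Bcl6- cells, beside -0.03. These comparisons share arrays, so their values are not independent. A call is an adjusted p under 0.05 (limma, Benjamini-Hochberg adjustment over 23410 probe sets) with no fold threshold, and 95% intervals are not adjusted for the number of tests. Calls over all probe sets in the comparison of the Cxcr5+ populations were 50.8% higher as deposited and 35.0% higher after each array was centred on its median.

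**Figure D1:**
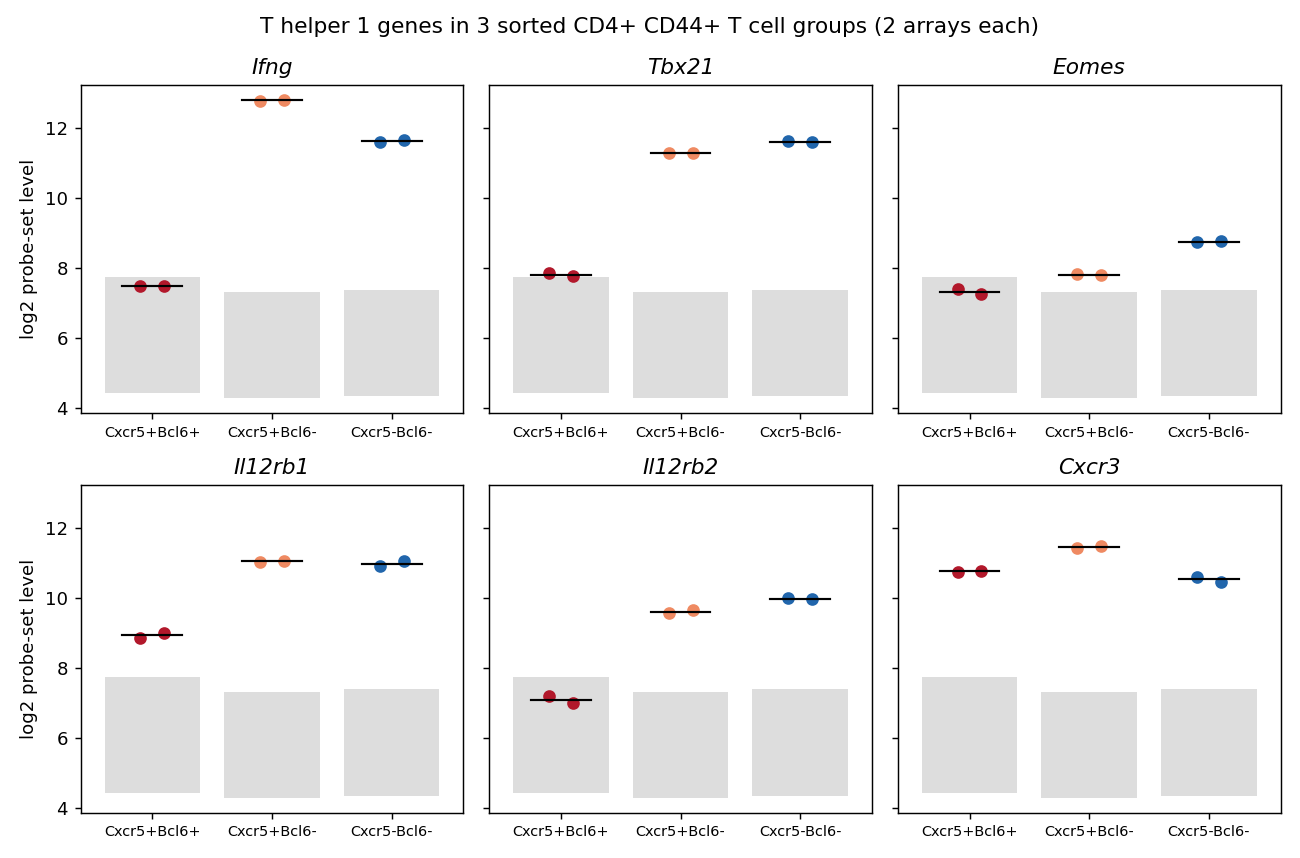
Log2 level of the 6 genes on each array (points) with group means (bars), in Cxcr5+Bcl6+, Cxcr5+Bcl6- and Cxcr5-Bcl6- cells from left to right; grey bands span the 5th to 95th percentile of 1203 smell and pheromone receptor genes, taken as background. Ifng, Eomes and Il12rb2 lie inside the band in Cxcr5+Bcl6+ cells and above it in the other populations, while Cxcr3 lies above it everywhere.

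Ifng, which encodes interferon gamma, the cytokine that activates macrophages, showed the widest spread between populations of the 6 genes. Probe set 10366586 had log2 levels of 7.504 and 7.496 in Cxcr5+Bcl6+ cells, 12.80 and 12.82 in Cxcr5+Bcl6- cells and 11.60 and 11.67 in Cxcr5-Bcl6- cells. The 3 populations did not overlap, and the Cxcr5+Bcl6- arrays were the highest. Cxcr5+Bcl6+ cells averaged 7.4999 ± 0.00584, Cxcr5+Bcl6- cells 12.81 ± 0.0149 and Cxcr5-Bcl6- cells 11.64 ± 0.0514 (SD, n = 2 each). Ifng was 17.6-fold lower in Cxcr5+Bcl6+ cells than in Cxcr5-Bcl6- cells (log2 difference -4.14, 95% interval -4.33 to -3.95, adjusted p = 2.5e-10) and 39.6-fold lower than in Cxcr5+Bcl6- cells (-5.31, -5.50 to -5.12, adjusted p = 2.23e-11). In Cxcr5+Bcl6- cells it was 2.25-fold higher than in Cxcr5-Bcl6- cells (1.17, 0.98 to 1.36, adjusted p = 9.26e-06).

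How far a low level lies from background was read from 1203 genes of smell and pheromone receptors (olfactory, vomeronasal and trace-amine), none of them known to act in T cells. Cxcr5+Bcl6+ cells had a median log2 level of 5.97 over these genes and a 95th percentile of 7.75, Cxcr5+Bcl6- cells 5.66 and 7.31, and Cxcr5-Bcl6- cells 5.74 and 7.39. In Cxcr5+Bcl6+ cells, 91 of these genes stood at or above Ifng, 46 at or above Tbx21, 129 at or above Eomes, 187 at or above Il12rb2, 3 at or above Il12rb1 and 0 at or above Cxcr3. For Ifng, Eomes and Il12rb2 the low end of each difference thus lies within the range of these receptor genes, and for Tbx21 it lies just above their 95th percentile. A remaining signal of these 4 genes in Cxcr5+Bcl6+ cells cannot be told apart from background, and their true ratios may be larger than the folds given. The receptor genes themselves had a median log2 difference of 0.22 for Cxcr5+Bcl6+ against Cxcr5-Bcl6- cells and 0.30 against Cxcr5+Bcl6- cells, opposite in sign to the falls of the T helper 1 genes. Of the 1203, 418 were called higher and 1 lower in Cxcr5+Bcl6+ against Cxcr5-Bcl6- cells. Against Cxcr5+Bcl6- cells 566 were called higher and 0 lower. The shares of all probe sets called higher in these comparisons were 17.6% and 13.4%, so background genes were called higher more often.

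Tbx21, which encodes T-bet, was high in both Bcl6- populations. Probe set 10390328 had log2 levels of 7.85 and 7.79 in Cxcr5+Bcl6+ cells, 11.295 and 11.294 in Cxcr5+Bcl6- cells and 11.64 and 11.61 in Cxcr5-Bcl6- cells. The Cxcr5+Bcl6+ arrays stood far below the other 4, and the Cxcr5+Bcl6- arrays slightly below the Cxcr5-Bcl6- arrays. On average Cxcr5+Bcl6+ cells had 7.82 ± 0.0469, Cxcr5+Bcl6- cells 11.29 ± 0.000728 and Cxcr5-Bcl6- cells 11.63 ± 0.0164 (SD, n = 2 each). Tbx21 was 14.0-fold lower in Cxcr5+Bcl6+ cells than in Cxcr5-Bcl6- cells (log2 difference -3.80, 95% interval -3.99 to -3.62, adjusted p = 3.28e-10) and 11.1-fold lower than in Cxcr5+Bcl6- cells (-3.47, -3.66 to -3.28, adjusted p = 6.18e-10). The difference between Cxcr5+Bcl6- and Cxcr5-Bcl6- cells was small (-0.33, -0.52 to -0.14, adjusted p = 0.0287). Its call ended when any 1 of the 4 arrays compared was left out (adjusted p = 0.216 and 0.218 without Cxcr5+Bcl6- replicate 1 and 2, 0.0869 and 0.068 without Cxcr5-Bcl6- replicate 1 and 2) and when all 35556 rows were tested (0.0829).

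Eomes encodes eomesodermin, a T-box factor related to T-bet that is best known from CD8 T cells and NK cells. Probe set 10589994 had log2 levels of 7.42 and 7.25 in Cxcr5+Bcl6+ cells, 7.83 and 7.81 in Cxcr5+Bcl6- cells and 8.75 and 8.77 in Cxcr5-Bcl6- cells. The populations did not overlap, and the Cxcr5-Bcl6- arrays were the highest. Cxcr5+Bcl6+ cells averaged 7.33 ± 0.117, Cxcr5+Bcl6- cells 7.82 ± 0.0148 and Cxcr5-Bcl6- cells 8.76 ± 0.0127 (SD, n = 2 each). Eomes was 2.69-fold lower in Cxcr5+Bcl6+ cells than in Cxcr5-Bcl6- cells (log2 difference -1.43, 95% interval -1.63 to -1.23, adjusted p = 4.05e-07) and 1.398-fold lower than in Cxcr5+Bcl6- cells (-0.48, -0.69 to -0.28, adjusted p = 0.00241). In Cxcr5+Bcl6- cells it was lower than in Cxcr5-Bcl6- cells (-0.945, -1.15 to -0.74, adjusted p = 5.65e-05). Cd8a, a marker of CD8 T cells, was also highest in Cxcr5-Bcl6- cells, with 7.44 and 7.24 in Cxcr5+Bcl6+, 7.49 and 7.45 in Cxcr5+Bcl6- and 8.57 and 8.52 in Cxcr5-Bcl6- cells. Between the Cxcr5+ populations Cd8a was not called (-0.13, adjusted p = 0.355), and its Cxcr5+Bcl6+ level lay inside the band of the receptor genes. The part of CD8 T cells in the Eomes values was not tested.

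The 2 chains of the interleukin 12 receptor fell together in Cxcr5+Bcl6+ cells. Il12rb2, the chain that signals through Stat4 (probe set 10545135), had log2 levels of 7.197 and 6.9999 in Cxcr5+Bcl6+ cells, 9.56 and 9.65 in Cxcr5+Bcl6- cells and 10.00 and 9.97 in Cxcr5-Bcl6- cells. Il12rb1, the chain shared with the IL-23 receptor (probe set 10572497), had 8.86 and 9.01 in Cxcr5+Bcl6+ cells, 11.04 and 11.06 in Cxcr5+Bcl6- cells and 10.92 and 11.05 in Cxcr5-Bcl6- cells. For both chains the Cxcr5+Bcl6+ arrays were the lowest, and for Il12rb1 the Cxcr5+Bcl6- and Cxcr5-Bcl6- arrays overlapped. Il12rb2 averaged 7.10 ± 0.139 in Cxcr5+Bcl6+ cells, 9.61 ± 0.0652 in Cxcr5+Bcl6- cells and 9.99 ± 0.0224 in Cxcr5-Bcl6- cells (SD, n = 2 each). Il12rb1 averaged 8.94 ± 0.107 in Cxcr5+Bcl6+ cells, 11.05 ± 0.0111 in Cxcr5+Bcl6- cells and 10.99 ± 0.0958 in Cxcr5-Bcl6- cells.

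Il12rb2 was 7.41-fold lower in Cxcr5+Bcl6+ cells than in Cxcr5-Bcl6- cells (log2 difference -2.89, 95% interval -3.10 to -2.68, adjusted p = 3.41e-09) and 5.69-fold lower than in Cxcr5+Bcl6- cells (-2.51, -2.72 to -2.30, adjusted p = 1.78e-08). Il12rb1 was 4.13-fold lower than in Cxcr5-Bcl6- cells (-2.05, -2.26 to -1.84, adjusted p = 3.57e-08) and 4.32-fold lower than in Cxcr5+Bcl6- cells (-2.11, -2.32 to -1.90, adjusted p = 5.8e-08). Between the Bcl6- populations the chains gave different calls. Il12rb2 was lower in Cxcr5+Bcl6- cells than in Cxcr5-Bcl6- cells (-0.38, -0.59 to -0.17, adjusted p = 0.0254), and the call ended without any 1 of the 4 arrays (0.231 and 0.0875 without Cxcr5+Bcl6- replicate 1 and 2, 0.0815 and 0.0603 without Cxcr5-Bcl6- replicate 1 and 2) and with all rows tested (0.0981). Il12rb1 had a log2 difference of 0.06 there, with an interval of -0.14 to 0.27 (adjusted p = 0.812). Whether the 2 chains differ from each other in this respect was not tested.

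Cxcr3, the receptor for Cxcl9, Cxcl10 and Cxcl11, was highest in Cxcr5+Bcl6- cells, as Ifng was, and lowest in Cxcr5-Bcl6- cells. Probe set 10606058 had log2 levels of 10.75 and 10.78 in Cxcr5+Bcl6+ cells, 11.43 and 11.48 in Cxcr5+Bcl6- cells and 10.61 and 10.47 in Cxcr5-Bcl6- cells. The Cxcr5+Bcl6- arrays were the highest, and the other populations lay close together without overlap. The mean was 10.77 ± 0.0237 in Cxcr5+Bcl6+ cells, 11.45 ± 0.0328 in Cxcr5+Bcl6- cells and 10.54 ± 0.101 in Cxcr5-Bcl6- cells (SD, n = 2 each). Cxcr3 was 1.61-fold lower in Cxcr5+Bcl6+ cells than in Cxcr5+Bcl6- cells (log2 difference -0.69, 95% interval -0.88 to -0.49, adjusted p = 0.000211) and 1.88-fold higher in Cxcr5+Bcl6- cells than in Cxcr5-Bcl6- cells (0.91, 0.71 to 1.11, adjusted p = 6.6e-05). For Cxcr5+Bcl6+ against Cxcr5-Bcl6- cells the difference was 0.23 (0.03 to 0.43) and missed the threshold (adjusted p = 0.0751), and it passed after quantile normalisation (0.34, adjusted p = 0.00712), with an intensity trend in the variance prior (0.0442) and among probe sets above the median level (0.0396).

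**Figure D2:**
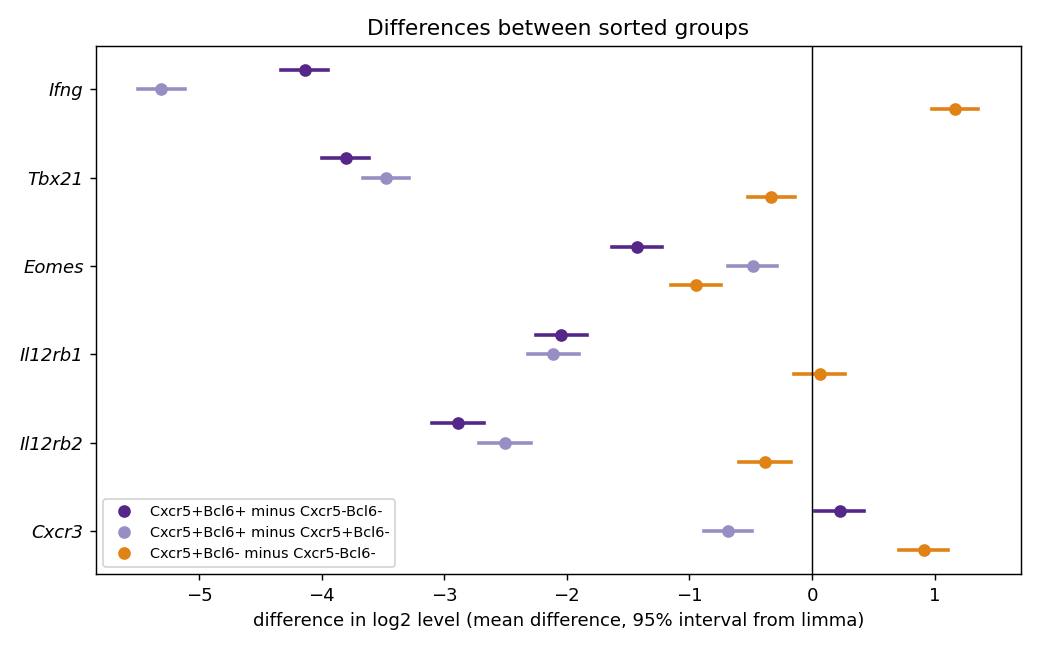
Differences in log2 level (points) with 95% intervals from limma (bars) for the 6 genes; for each gene the rows from top to bottom are Cxcr5+Bcl6+ minus Cxcr5-Bcl6-, Cxcr5+Bcl6+ minus Cxcr5+Bcl6-, and Cxcr5+Bcl6- minus Cxcr5-Bcl6- cells. The intervals of Ifng run from -5.50 to -3.95 for the comparisons of Cxcr5+Bcl6+ cells and from 0.98 to 1.36 for the Bcl6- populations, and only the interval of Il12rb1 in the last comparison contains 0.

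The place of the Cxcr5+Bcl6- cells was measured against the midpoint of the other 2 populations on the log2 scale. Their levels lay above the midpoint for Ifng (log2 difference 3.24, adjusted p = 1.64e-09), Tbx21 (1.57, 3.09e-07), Il12rb1 (1.09, 1.37e-05), Il12rb2 (1.06, 1.59e-05) and Cxcr3 (0.80, 5.5e-05). Eomes was the only member below the midpoint, by a log2 difference of -0.23 that missed the threshold (adjusted p = 0.114). The 5 of 6 calls above the midpoint compare with 4.16% of all probe sets above it, 4.08% below it and 8.24% in either direction. Of those calls 50.5% lay above the midpoint as deposited and 64.7% after centring. Of the 1203 receptor genes taken as background, 145 were called below the midpoint and 0 above it. As a share of the distance in log2 level that separates Cxcr5+Bcl6+ from Cxcr5-Bcl6- cells, the step taken by Cxcr5+Bcl6- cells was 8.71% for Tbx21, 13.2% for Il12rb2 and 66.1% for Eomes. It was -3.16% for Il12rb1 and -28.2% for Ifng, where the minus sign marks a step away from Cxcr5+Bcl6+ cells. For Ifng, Tbx21, Eomes and Il12rb2 both the midpoint and these shares rest on Cxcr5+Bcl6+ levels that cannot be told apart from background, so they describe the array signal and would change with the background.

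Ligands of the pathway were mostly not called, and its other receptors were mostly lower in Cxcr5+Bcl6+ cells. Counts in this and the following lists stand beside the shares of all probe sets called. These were 17.6% higher and 17.7% lower for Cxcr5+Bcl6+ against Cxcr5-Bcl6- cells. They were 13.4% and 13.0% between the Cxcr5+ populations, and 5.22% and 5.93% between the Bcl6- populations. None of the 6 interleukin 12 family and partner ligands, Il12a, Il12b, Il23a, Il27, Ebi3 and Il18, was called between Cxcr5+Bcl6+ and Cxcr5-Bcl6- cells, with a median log2 difference of 0.02. Ebi3, a subunit of IL-27, was higher in Cxcr5+Bcl6- cells than in Cxcr5-Bcl6- cells (0.52, adjusted p = 0.00706, 0.0866 without Cxcr5+Bcl6- replicate 1 and 0.0559 with all rows). Il12a, Il12b, Il23a and Il18 lay inside the band of the receptor genes in all 3 populations. Among 8 other receptors that drive or tune the T helper 1 response, 5 were lower in Cxcr5+Bcl6+ cells than in Cxcr5-Bcl6- cells and 0 higher (median -0.47). They included Il21r, which binds IL-21 (-0.92, adjusted p = 8.83e-06), Ifngr2, the signalling chain of the interferon gamma receptor (-0.89, 4.27e-05), Il2rb (-0.69, 0.000216) and Il18rap, the accessory chain of the interleukin 18 receptor (-0.54, 0.00168).

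Between the Bcl6- populations the same 8 receptors had 3 rises and 2 falls in Cxcr5+Bcl6- cells (median 0.08). Il23r, which pairs with Il12rb1 to bind IL-23, had log2 levels of 8.47 and 8.64 in Cxcr5+Bcl6+, 10.07 and 10.02 in Cxcr5+Bcl6- and 8.997 and 8.914 in Cxcr5-Bcl6- cells. The Cxcr5+Bcl6- arrays were the highest for Il23r, as they were for Ifng and Cxcr3 (log2 difference 1.09 against Cxcr5-Bcl6- cells, adjusted p = 2.52e-05). Il18r1 (0.60, 0.00105) and Il18rap (0.65, 0.0021), the 2 chains of the interleukin 18 receptor, rose as well. The falls were Ifngr2 (-0.50, 0.00935) and Il21r (-0.34, 0.0303). The call of Ifngr2 ended without Cxcr5+Bcl6- replicate 1 (0.0674) or with all rows (0.0653), and that of Il21r without any 1 of the 4 arrays (0.0801 to 0.291), with all rows (0.0912) or with centring (0.0523).

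The signal transducers of the pathway were mixed. Of 5 measured, 3 were higher and 1 lower in Cxcr5+Bcl6+ cells than in Cxcr5-Bcl6- cells (median log2 difference 0.26). Over all probe sets 17.6% were called higher and 17.7% lower there. Against Cxcr5+Bcl6- cells 1 was higher (Stat4), 1 lower (Stat3) and 3 were not called (median 0.16). Stat4, which carries the interleukin 12 signal, had log2 levels of 13.20 and 13.06 in Cxcr5+Bcl6+, 12.70 and 12.71 in Cxcr5+Bcl6- and 12.24 and 12.21 in Cxcr5-Bcl6- cells. Its order was the reverse of that of Tbx21, Il12rb2 and Eomes, with no overlap between populations. Stat4 was higher in Cxcr5+Bcl6+ cells than in Cxcr5-Bcl6- cells (0.90, adjusted p = 1.14e-05) and than in Cxcr5+Bcl6- cells (0.43, 0.00471), and higher in Cxcr5+Bcl6- cells than in Cxcr5-Bcl6- cells (0.48, 0.00513). The kinase genes Tyk2 (0.47, 0.012) and Jak1 (0.26, 0.0404) rose in Cxcr5+Bcl6+ against Cxcr5-Bcl6- cells, and Stat3, which transmits interleukin 6 and IL-21 signals, fell (-0.37, 0.00552). Tyk2 lost its call without Cxcr5+Bcl6+ replicate 2 (0.0923) or Cxcr5-Bcl6- replicate 1 (0.0596) and with all rows tested (0.057). Jak1 lost it with centring, all rows, only the 4 arrays compared or the replicate block (0.0553 to 0.107). It lost it also without Cxcr5+Bcl6+ replicate 2 or either Cxcr5-Bcl6- array (log2 difference 0.20 to 0.26).

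Transcription factors that act with or downstream of T-bet were mostly lower in Cxcr5+Bcl6+ cells. Of 8 measured, 5 fell and 2 rose against Cxcr5-Bcl6- cells (median log2 difference -0.80), and 5 fell and 1 rose against Cxcr5+Bcl6- cells (median -0.78). Prdm1, which encodes the repressor Blimp-1, an antagonist of Bcl6, had 7.796 and 7.511 in Cxcr5+Bcl6+, 10.03 and 9.94 in Cxcr5+Bcl6- and 9.77 and 9.78 in Cxcr5-Bcl6- cells (-2.12 against Cxcr5-Bcl6- cells, adjusted p = 5.41e-08). Irf1, an interferon-induced factor that supports Il12rb1 transcription, fell by 1.60 on the log2 scale (1.78e-07), and a second probe set of Irf1 fell by 0.77 (0.00221). Bhlhe40, which represses Il10 in T helper 1 cells, fell by 1.08 (2.26e-06). The rises were Stat4, given above, and Zeb2, a repressor that works with T-bet in CD8 T cells (0.33, 0.0196). The call of Zeb2 ended without Cxcr5+Bcl6+ replicate 2 (0.122) or Cxcr5-Bcl6- replicate 2 (0.0772), and with all rows (0.056) or centring (0.0501). Prdm1 lay inside the band of the receptor genes in Cxcr5+Bcl6+ cells. Runx3, which binds Ifng with T-bet, was among the falls against Cxcr5+Bcl6- cells (-1.01, 3.86e-05).

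Effector products of T helper 1 cells were low in Cxcr5+Bcl6+ cells. Of 11 measured genes, 10 were lower than in Cxcr5-Bcl6- cells (median log2 difference -2.36) and 11 lower than in Cxcr5+Bcl6- cells (median -1.95), with 0 higher in either comparison. Gzmb, which encodes the cytotoxic protease granzyme B, had 6.73 and 6.71 in Cxcr5+Bcl6+, 11.89 and 11.98 in Cxcr5+Bcl6- and 11.83 and 11.78 in Cxcr5-Bcl6- cells (-5.09 against Cxcr5-Bcl6- cells, adjusted p = 5.96e-11). The chemokine gene Ccl3 (-4.24, 1.47e-09), Havcr2, which encodes the inhibitory receptor Tim-3 (-2.97, 1.47e-09), and Csf2, which encodes GM-CSF (-2.86, 9.67e-09), followed. In Cxcr5+Bcl6+ cells Gzmb, Havcr2, Csf2 and Fasl lay inside the band of the receptor genes, so the size of their differences is limited by background there. Cxcr6, a chemokine receptor of effector cells, had a difference of -0.10 there (0.601). Its call against Cxcr5+Bcl6- cells (-0.39, 0.0408) ended without Cxcr5+Bcl6+ replicate 1 (0.157), Cxcr5+Bcl6+ replicate 2 (0.136) or Cxcr5+Bcl6- replicate 1 (0.228), and with quantile normalisation (0.0888) or all rows (0.126).

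Between the Bcl6- populations these products split, with 2 rises and 2 falls in Cxcr5+Bcl6- cells, the other 7 not being called (median 0.13). Csf2 had 11.63 and 11.54 in Cxcr5+Bcl6- cells, against 10.26 and 9.97 in Cxcr5-Bcl6- cells (log2 difference 1.47, adjusted p = 9.67e-06). Havcr2 was higher as well (0.44, 0.00652), and its call ended without Cxcr5+Bcl6- replicate 1 (0.0956). The chemokine gene Ccl5 had 9.94 and 9.91 in Cxcr5+Bcl6- cells, against 11.28 and 11.12 in Cxcr5-Bcl6- cells (-1.27, 8.87e-06). Fasl, which encodes the death ligand Fas ligand, was also lower (-0.82, 0.0017). Csf2 thus stood with Ifng among the genes highest in Cxcr5+Bcl6- cells, and Ccl5 with Eomes among those highest in Cxcr5-Bcl6- cells.

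Genes that respond to interferon gamma were low in Cxcr5+Bcl6+ cells. Of 12 measured, 10 were lower and 0 higher in Cxcr5+Bcl6+ cells than in Cxcr5-Bcl6- cells (median log2 difference -1.78), and 10 lower and 1 higher than in Cxcr5+Bcl6- cells (median -1.49). Iigp1, an interferon-induced GTPase gene (-4.16, adjusted p = 2.5e-10), Cxcl9 (-2.53, 5.26e-09), the GTPase gene Irgm1 (-2.39, 2.15e-08) and Socs1, a feedback inhibitor of cytokine signalling (-2.02, 2.66e-08), had the smallest p against Cxcr5-Bcl6- cells. Iigp1 and Cxcl9 lay inside the band of the receptor genes in Cxcr5+Bcl6+ cells, so the size of their differences is limited by background. The 1 rise against Cxcr5+Bcl6- cells was Ciita (0.31, 0.0395), the activator of MHC class II genes, and its call ended without Cxcr5+Bcl6+ replicate 1 (0.208), Cxcr5+Bcl6- replicate 1 (0.129) or Cxcr5+Bcl6- replicate 2 (0.205), and with the replicate block (0.0568), quantile normalisation (0.0921), centring (0.098) or all rows (0.1). Many of these genes also respond to type I interferon.

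In Cxcr5+Bcl6- cells Ifng was 2.25-fold higher than in Cxcr5-Bcl6- cells. Of the 12 response genes, 0 were called higher and 3 lower there (median -0.07). Over all probe sets 5.22% were called higher and 5.93% lower, so a count of 0 higher among 12 genes is near the overall share. Cxcl9 had 7.77 and 7.84 in Cxcr5+Bcl6- cells, against 9.62 and 9.51 in Cxcr5-Bcl6- cells (log2 difference -1.76, adjusted p = 8.07e-07). Socs1 was lower by a log2 difference of -0.42 (0.0115), a call that ended without Cxcr5+Bcl6- replicate 1 (0.137), Cxcr5+Bcl6- replicate 2 (0.0595) or Cxcr5-Bcl6- replicate 2 (0.0533), and with all rows (0.0557). Iigp1 was lower by -0.35 (0.0276), a call that ended without Cxcr5+Bcl6- replicate 1 (0.128), Cxcr5+Bcl6- replicate 2 (0.271) or Cxcr5-Bcl6- replicate 1 (0.123), and with all rows (0.0892) or centring (0.0501). Cxcl9 is made by dendritic cells and macrophages as well, and a list of 9 genes of those cells had mean log2 levels of 7.22 and 7.12 in Cxcr5+Bcl6+, 7.32 and 7.34 in Cxcr5+Bcl6- and 8.14 and 8.21 in Cxcr5-Bcl6- cells. In Cxcr5+Bcl6- against Cxcr5-Bcl6- cells 5 of the 9 were lower, 1 was higher (Lyz2, 1.11, 0.000123) and 3 were not called. In Cxcr5+Bcl6+ against Cxcr5+Bcl6- cells, where Cxcl9 had a difference of -0.77, 3 of the 9 were lower and the median was -0.02. The 3 were Ccl22 (-0.97), Siglech (-0.61) and Cd209a (-0.36). In Cxcr5+Bcl6+ cells all of the list except Lyz2 lay inside the band of the receptor genes. Adgre1, Csf1r, Flt3, Itgax and Xcr1 did so in Cxcr5+Bcl6- cells too, so this median rests partly on such genes. The part of dendritic cells and macrophages in the Cxcl9 values was not tested. Among the ligands of Cxcr3, Cxcl10 fell in Cxcr5+Bcl6+ against Cxcr5-Bcl6- cells (-1.71, 6.97e-08) with Cxcl9, while Cxcl11 did not pass (-0.21, 0.0977) except after quantile normalisation (0.0191) or centring (0.0461), and lay near background in all populations.

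**Figure D3:**
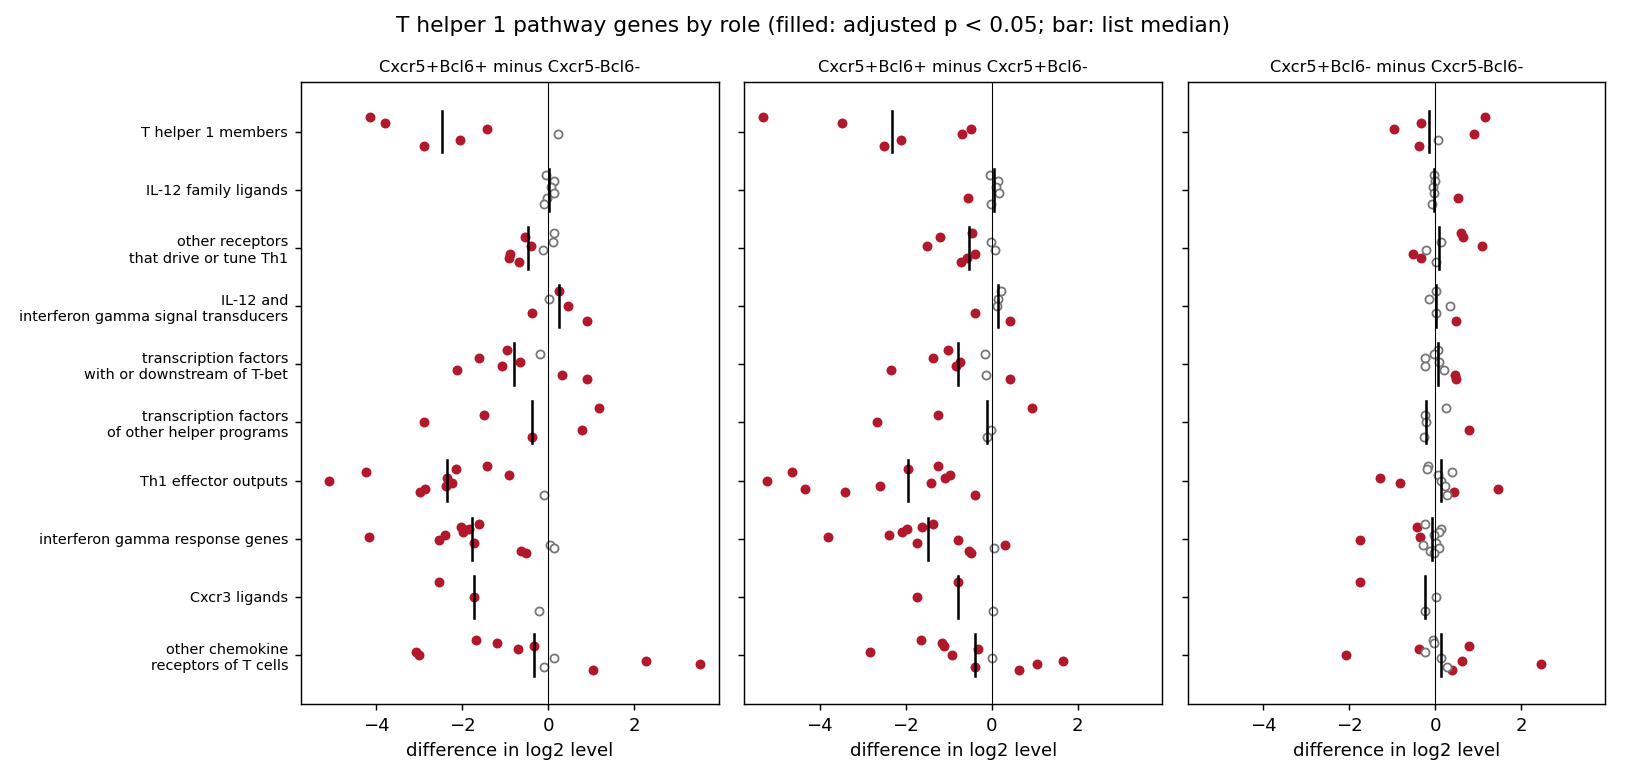
Differences in log2 level of each gene (points, filled where the adjusted p is under 0.05) by role in the pathway, with the median of each list (bars), for Cxcr5+Bcl6+ minus Cxcr5-Bcl6-, Cxcr5+Bcl6+ minus Cxcr5+Bcl6- and Cxcr5+Bcl6- minus Cxcr5-Bcl6- cells. Effector outputs (median -2.36 and -1.95) and interferon gamma response genes (median -1.78 and -1.49) lie left of 0 in the first and second panels, and both medians lie near 0 in the last (0.13 and -0.07).

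The genes nearest in pattern to a member were found from the root mean square difference of levels, each gene centred on its own mean over the 6 arrays, among 19937 other genes. Nearest to Ifng were Il3 (0.215), which encodes a growth factor for myeloid cells, Ccl3 (0.361), Gzmb (0.470), Csf2 (0.558) and Il17a (0.629), the signature cytokine of T helper 17 cells. Nearest to Tbx21 were Gm12250 (0.121), Iigp1 (0.169), the guanylate-binding protein gene Gbp2b (0.307), Rtp4 (0.309) and Pros1 (0.315), the gene of protein S. Nearest to Il12rb2 were the interferon-induced genes Ifit3 (0.123), Gbp7 (0.136) and Ifit1 (0.154), Foxp3 (0.135), the regulator of regulatory T cells, and Cish (0.144), a target of Stat5. Among the members themselves, Il12rb1 and Il12rb2 were the nearest pair (0.363), ahead of Tbx21 and Il12rb2 (0.446). These values describe 6 arrays of 3 populations, which largely set them. In Cxcr5+Bcl6+ cells Il3, Gzmb, Csf2, Iigp1, Rtp4, Pros1, Ifit3 and Ifit1 lay inside the band of the receptor genes, as Ifng and Il12rb2 did. Their likeness at the low end may therefore rest on background.

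**Figure D4:**
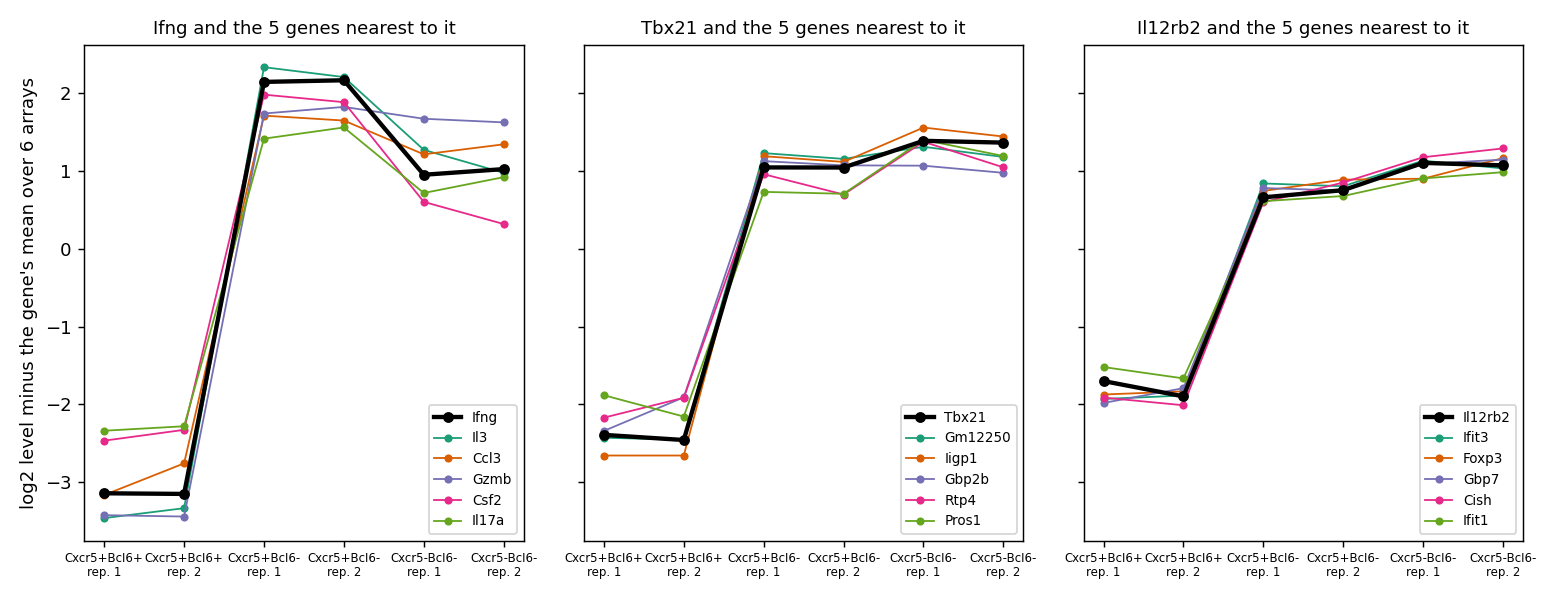
Log2 level minus the gene's own mean over 6 arrays for Ifng, Tbx21 and Il12rb2 (thick black lines) and the 5 genes nearest to each (thin lines), with the Cxcr5+Bcl6+ arrays at the left, the Cxcr5+Bcl6- arrays in the middle and the Cxcr5-Bcl6- arrays at the right. Ifng peaks in Cxcr5+Bcl6- cells, whereas Tbx21 and Il12rb2 are highest in Cxcr5-Bcl6- cells.

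Markers of other cells that make interferon gamma or sit beside T cells also differed between the populations. The 3 CD8 T cell genes Cd8a, Cd8b1 and Crtam had mean log2 levels of 8.07 and 7.99 in Cxcr5+Bcl6+, 8.82 and 8.75 in Cxcr5+Bcl6- and 9.50 and 9.44 in Cxcr5-Bcl6- cells, and 3 of 3 were lower in Cxcr5+Bcl6+ cells than in Cxcr5-Bcl6- cells. The 9 NK and NKT cell genes had 6.73 and 6.66 in Cxcr5+Bcl6+, 7.23 and 7.16 in Cxcr5+Bcl6- and 7.21 and 7.08 in Cxcr5-Bcl6- cells, with 5 lower and 1 higher (Klrb1c) in Cxcr5+Bcl6+ cells than in Cxcr5-Bcl6- cells. Between the Cxcr5+ populations, where Ifng and Tbx21 fell in Cxcr5+Bcl6+ cells, 1 of the 3 CD8 T cell genes was lower (Crtam), while Cd8a (-0.13, adjusted p = 0.355) and Cd8b1 (-0.15, 0.246) were not called, and of the NK and NKT cell genes 4 were lower and 1 higher. Between the Bcl6- populations, where Ifng was higher in Cxcr5+Bcl6- cells, 3 of 3 CD8 T cell genes were lower there, and Crtam lost its call without Cxcr5+Bcl6- replicate 1 (0.151), Cxcr5+Bcl6- replicate 2 (0.252) or Cxcr5-Bcl6- replicate 1 (0.141). The NK and NKT cell genes had 2 rises and 1 fall there, where 5.22% of all probe sets were called higher and 5.93% lower. Crtam, Nkg7 and Gzma are also known in activated CD4 T cells. Ncr1, the defining receptor of NK cells, lay between 6.10 and 6.40 on all arrays, inside the band of the receptor genes, and was called in none of the 3 comparisons, with adjusted p of 0.108, 0.3 and 0.794. After quantile normalisation it was called lower in Cxcr5+Bcl6+ cells than in Cxcr5-Bcl6- cells (-0.30, 0.0361). Klrb1c, Klrk1, Klra8 and Klre1 also lay inside the band in all 3 populations. The rise of Klrb1c thus lay within the range of background, and the means of the NK and NKT cell list rest partly on such genes. B cell genes went the other way, with means of 8.23 and 8.34 in Cxcr5+Bcl6+, 7.67 and 7.59 in Cxcr5+Bcl6- and 7.07 and 6.97 in Cxcr5-Bcl6- cells. Cd79a and Cr2 of this list lay inside the band in all 3 populations, and Ms4a1 did in Cxcr5-Bcl6- cells. The means of the B cell list thus rest partly on genes near background as well. Log2 array levels have no true zero, and the part of other cells in the levels of the 6 genes was not tested.

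**Figure D5:**
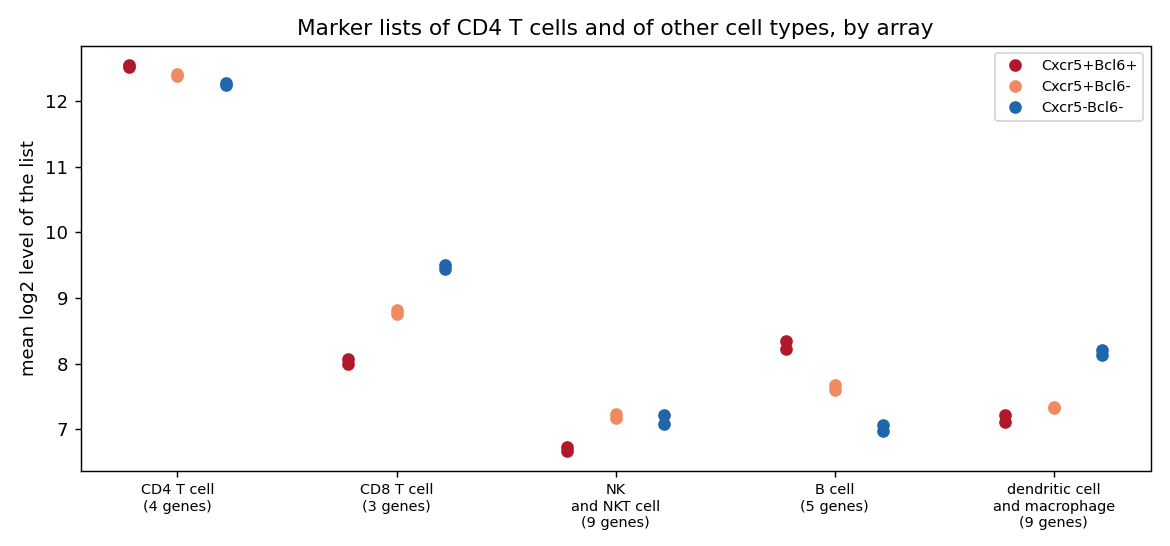
Mean log2 level of marker lists on each array (points), with Cxcr5+Bcl6+, Cxcr5+Bcl6- and Cxcr5-Bcl6- cells from left to right within each list; levels can be compared within a list, not between lists. Means of the CD4 T cell genes, whose members moved both ways, lie between 12.24 and 12.55, while CD8 T cell genes are lowest in Cxcr5+Bcl6+ cells (8.07 and 7.99) and highest in Cxcr5-Bcl6- cells (9.50 and 9.44).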

How the data were processed

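RNA of 6 samples was hybridised to 1 array each, and samples were grouped by the sort named in their titles. The authors deposited normalised probe-set values, taken as log2 levels from their range (3.45 to 15.0). GCOS 1.1, RMA and Affymetrix Expression Console are named per the submitters' processing notes, without order or settings. The labels state no genome build, and background correction could not be varied without scanner signals. Of 35556 rows, 21789 carried 1 gene symbol, 1621 several and 12146 none, from the platform's annotation, with 21698 symbols updated through Entrez identifiers.

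The test was limma's moderated test, version 3.58.1 under R 4.3.3, on all 23410 named probe sets (lmFit on group means over the 6 arrays, eBayes, two-sided, 3 residual degrees of freedom), with Benjamini-Hochberg adjustment and a threshold of 0.05. It drew the spread of each probe set towards a prior fitted over all of them, with 8.25 degrees of freedom and a log2 SD of 0.0989. The code was tested on simulated data. Lists took for each of 19938 genes its brightest probe set. The text names all members, up to 4 genes per list and comparison by smallest p, exceptions to a list's direction and the 5 nearest genes of 3 members. Genes named beyond this were chosen after their values were seen. The members and lists were chosen with earlier results of these data known. Some genes of the lists are not reported here. The number of arrays limits the precision. Alternatives changed the variance prior, normalisation, filter, rows tested, arrays fitted, call rule, replicate term and arrays left out.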

Additional observations from a re-analysis of the deposited data

How the results depend on the processing

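Over the 6 genes and 4 comparisons (the midpoint included), 380 of 398 recomputed values kept their direction and side of the threshold, 13 lost a call, 4 gained one and 1 changed sign. The 13 were Tbx21 and Il12rb2 between the Bcl6- populations (under all rows, a 1.5-fold minimum and each of the 4 arrays left out) and Eomes between the Cxcr5+ populations under the 1.5-fold minimum. The 4 were Cxcr3 in Cxcr5+Bcl6+ against Cxcr5-Bcl6- cells. The 398 values are not independent checks. Changes of the call rule kept the main estimates. For each pair of populations, leaving out an array of the remaining population gave the same fit as using only the 4 arrays compared. Il12rb1, not called between the Bcl6- populations, had a log2 difference of -0.0031 without Cxcr5-Bcl6- replicate 1, and up to 0.1324 without Cxcr5-Bcl6- replicate 2. Members called there, 5 in the report, were 3 with all rows tested, 3 with the 1.5-fold minimum and 3 to 5 with 1 array left out. Eomes lay below the median level and had no value under that filter. Probe sets called changed more. With the 1.5-fold minimum they were 3470 for Cxcr5+Bcl6+ against Cxcr5-Bcl6- cells (8255 in the report), 1952 for Cxcr5+Bcl6+ against Cxcr5+Bcl6- cells (6185), 822 for Cxcr5+Bcl6- against Cxcr5-Bcl6- cells (2610) and 616 for the midpoint (1928). With all rows tested the Bcl6- populations gave 1579, and above the median level the midpoint gave 1269. With 1 array left out, calls ranged from 1317 to 2624 between the Bcl6- populations, from 3617 to 6987 between the Cxcr5+ populations and from 994 to 2560 for the midpoint, lowest without Cxcr5+Bcl6- replicate 1. These settings changed the arrays fitted, the rows tested or the call rule, and the causes of the changes in number were not tested. With the replicate number as a block, probe sets called were 7942 for Cxcr5+Bcl6+ against Cxcr5-Bcl6- cells, 5862 between the Cxcr5+ populations, 2411 between the Bcl6- populations and 1760 for the midpoint, and the members' calls stayed at 5, 6, 5 and 5. The replicate numbers were taken not to pair the samples. Deviations of same-numbered arrays correlated at -0.05, -0.23 and 0.26, and with 2 arrays per group these values cannot exclude pairing. Signal near background in Cxcr5+Bcl6+ cells limits Ifng, Tbx21, Eomes and Il12rb2. Of the other genes described it limits Gzmb, Havcr2, Csf2, Fasl, Prdm1, Iigp1, Cxcl9, Cxcl11, Ccr9, Nkg7, Gzma, Cd8a, Ccl22, Siglech and Cd209a. Klrb1c, Cd79a, Cr2, Il3, Pros1, Rtp4, Ifit3 and Ifit1 also lay inside the band of the receptor genes there, and the lists hold further such genes.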

Other observations

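Other homing receptors of T cells, 10 chemokine receptors and the lipid receptor S1pr1, split by population. Of 11 measured, 3 were higher and 6 lower in Cxcr5+Bcl6+ cells than in Cxcr5-Bcl6- cells (median log2 difference -0.32, beside 0.04 over all genes). Over all probe sets 17.6% were called higher and 17.7% lower. The sort gene Cxcr5 was higher by construction, Cxcr4, which guides cells within germinal centres, had 12.79 and 12.92 in Cxcr5+Bcl6+ cells, against 10.60 and 10.55 in Cxcr5-Bcl6- cells (2.27, adjusted p = 1.18e-08), and S1pr1, the sphingosine 1-phosphate receptor for exit from lymph nodes, rose by 1.04 (3.07e-06). Ccr8, a receptor of T helper 2 and regulatory T cells, fell by 3.08 on the log2 scale (6.16e-09), and Ccr9, the gut-homing receptor, was lower as well (log2 difference -2.996, 4.35e-09), from a level inside the band of the receptor genes in Cxcr5+Bcl6+ cells. Ccr6, a receptor of T helper 17 cells, had 10.09 and 9.98 in Cxcr5+Bcl6- cells, against 9.34 and 9.17 in Cxcr5-Bcl6- cells (0.78, adjusted p = 0.000506), and stood highest in Cxcr5+Bcl6- cells, as Cxcr3 and Il23r did.

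Regulators of other helper programs were measured beside Tbx21. Of 5, 2 were higher and 3 lower in Cxcr5+Bcl6+ cells than in Cxcr5-Bcl6- cells (median -0.36). One of the rises was Bcl6 itself, on whose reporter the cells were sorted. Foxp3 had mean log2 levels of 9.74 in Cxcr5+Bcl6+ cells, against 12.42 in Cxcr5+Bcl6- cells and 12.63 in Cxcr5-Bcl6- cells (-2.89 for Cxcr5+Bcl6+ against Cxcr5-Bcl6- cells, adjusted p = 7.23e-09). Gata3, the regulator of T helper 2 cells, had 10.69 in Cxcr5+Bcl6+ cells, against 11.95 in Cxcr5+Bcl6- cells and 12.19 in Cxcr5-Bcl6- cells (-1.50, 2.41e-07). Like Tbx21, both were high in both Bcl6- populations. Maf, which supports IL-21 and interleukin 10, had 11.58 and 11.60 in Cxcr5+Bcl6+, 11.62 and 11.58 in Cxcr5+Bcl6- and 10.74 and 10.87 in Cxcr5-Bcl6- cells. It was thus high in both Cxcr5+ populations (0.78 and 0.79 above Cxcr5-Bcl6- cells, adjusted p = 3.34e-05 and 0.000163).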
